A study of Homo sapiens with 12 samples.

Results

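The peptidyl transferase region of 28S rRNA, taken here as 460 positions of the deposited 28S sequence from ahead of the P loop to past the A loop, holds 12 of the 68 sites that the authors' overview lists as 2'-O-methylated in 28S, and 12 of the 141 sites it lists over all RNAs. Members were chosen by position and by their listing, with earlier results of these data known. The other 448 positions served as background. Alkali cuts RNA less often after a 2'-O-methylated nucleotide, so such a position has few read ends beside its neighbours. RiboMeth-seq turns this depletion into a score, a fraction that is 1 where no reads end and 0 where as many or more end as in the neighbourhood.

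Every library was made from Flp-In T-Rex HEK293, human embryonic kidney cells that carry a site for inducible transgenes, grown in DMEM with foetal calf serum. GPATCH4 KO cells, in which the G-patch protein GPATCH4 was knocked out, were set against WT cells without a knockout. WT cells transfected with siRNAs to the DEAH-box helicase DHX15 (siDHX15) were set against WT cells transfected with non-target siRNAs (siNT). Each of the 4 groups had 3 libraries, which the titles call biological replicates. The number of knockout clones and the time after transfection are not given in the sources used here. The assay measured no GPATCH4 or DHX15 mRNA, so neither the knockout nor the knockdown could be checked in these data.

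The region forms the core of the large subunit's catalytic centre, where the ribosome joins an amino acid to the growing chain. Its P loop and A loop pair with the CCA ends of the tRNAs in the P and A sites. Most of its ribose methylations are placed by fibrillarin, which box C/D small nucleolar RNAs guide to the site by base pairing. Known guides include SNORD31 for Gm4196, SNORD41 for Um4306, SNORD60 for Gm4370, SNORD49A for Cm4456, SNORD69 for Gm4494, SNORD29 for Am4523 and SNORD35A for Cm4536. In yeast the G of the A loop, the counterpart of Gm4499, is methylated without a guide by Spb1, whose human homologue is FTSJ3.

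Sites are named by their methylated base and position, so Gm4494 is a 2'-O-methylguanosine, and its position is 4464 in the older numbering that the overview also gives. The stretches below hold the sites that carry the results, with 10 bases on each side and the listed sites in capitals, 5' to 3' along the rRNA. The first holds the P loop, the second the adjacent pair Um4227 and Gm4228, the third Gm4370, and the last Gm4494 with both A loop sites.
28S 4186 to 4206: aguuugacugGggcgguacac
28S 4217 to 4238: guaacgcaggUGuccuaaggcg
28S 4360 to 4380: uuaagcaggaGgugucagaaa
28S 4484 to 4509: accaagcguuGgauUGuucacccacu

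Of the 12 sites 6 are G, 3 are U, 2 are C and 1 is A, in a stretch that is 31.1% G. The P loop stretch CUGGGGCGG at 4193 to 4201 occurs once in 28S and holds Gm4196. GGGAUAAC at 4391 to 4398, on the strand that lines the catalytic centre, also occurs once and holds Gm4392. The A loop stretch UUGUUCACC at 4497 to 4505 holds Um4498 and Gm4499, and Gm4494 lies 4 bases before the first of them. RefSeq lists 28S genes on chromosomes 21 and 22 that differ in length, and reads cannot be assigned to a copy, so positions are those of the deposited sequence and no genome coordinates are given.

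Libraries of the knockout experiment were deeper than those of the siRNA experiment. GPATCH4 KO libraries held 7437847 to 16236537 read ends and WT libraries 8677305 to 16314082, against 875096 to 5111963 in siDHX15 and 1705278 to 1796931 in siNT libraries. Between 7.77% and 9.66% of a library's read ends fell in the region. At the 12 sites the mean count at the neighbours was 720 to 5653 in GPATCH4 KO, 1045 to 5252 in WT, 120 to 1494 in siDHX15 and 152 to 736 in siNT libraries. These reads carry no molecular identifiers, so such counts speak for counting error only.

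Listed sites stood apart from the positions around them. Their scores reached 0.75 in 132 of 144 library values, against 15 of 5376 (0.279%) at unlisted positions. Means over the 12 libraries ran from 0.772 at Gm4494 to 0.974 at Gm4392, while unlisted positions had a median of 0.0844 and a highest mean of 0.664. Of the 12 sites 9 had a mean of at least 0.75 in every group, and Um4306, Gm4370 and Gm4494 did not. No unlisted position reached that level in all groups.

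**Figure D1:**
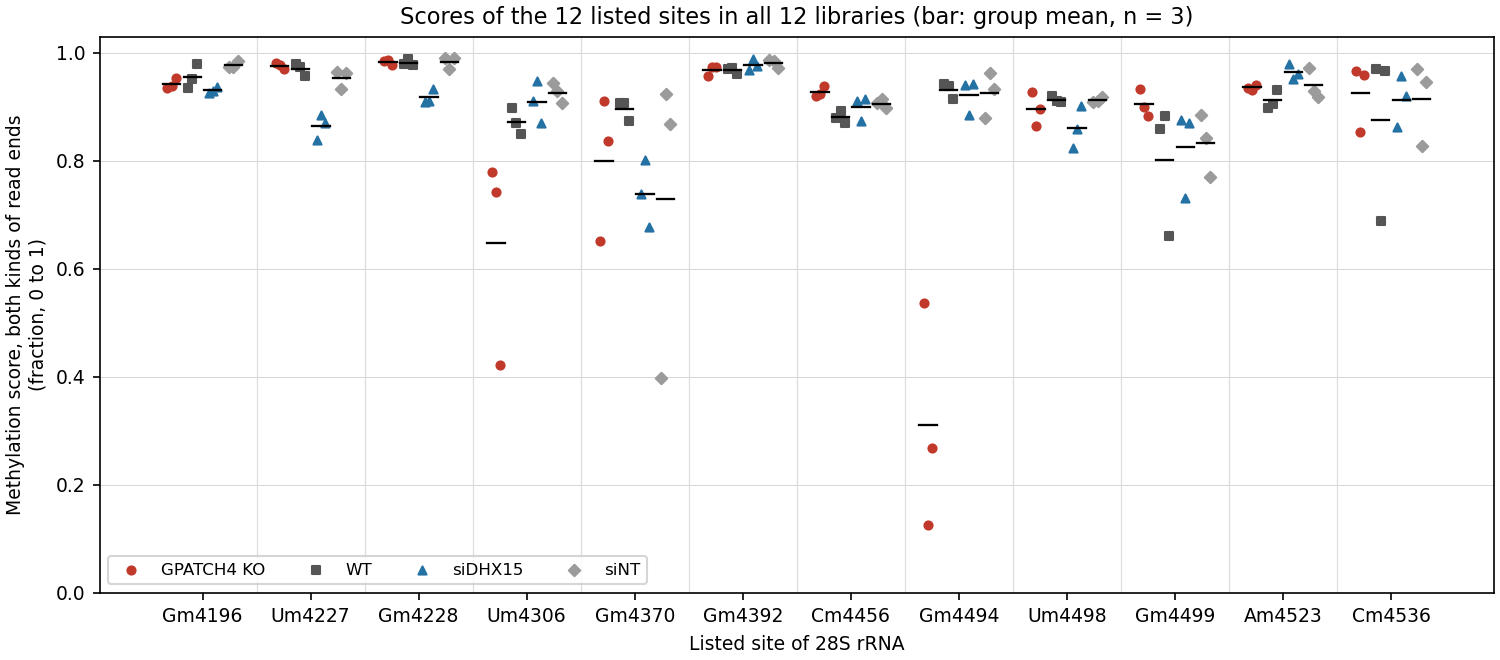
Score from both kinds of read ends (vertical axis, fraction from 0 to 1) at each of the 12 listed sites (horizontal axis), with 1 symbol for each library and a bar for each group mean (n = 3). GPATCH4 KO libraries lie between 0.125 and 0.537 at Gm4494, and all other libraries lie at 0.880 or above there.

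The knockout comparison asks which of these methylations depend on GPATCH4. Gm4494, the SNORD69 site next to the A loop, lost most of its score, and it was the only one of the 12 sites that passed the test. It scored 0.537, 0.125 and 0.268 in the 3 GPATCH4 KO libraries, against 0.943, 0.938 and 0.914 in the 3 WT libraries. Every knockout library was thus far below every WT library, and the knockout libraries were widely spread among themselves. The means were 0.310 ± 0.209 in GPATCH4 KO and 0.932 ± 0.0156 in WT (SD, n = 3 each). The difference was -0.621 (95% interval -0.804 to -0.439, limma, adjusted p = 0.000173 over 141 sites).

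The raw counts show the same contrast. At Gm4494 1292, 1103 and 714 reads ended in GPATCH4 KO libraries, against 222, 118 and 246 in WT libraries. The neighbour means were 2791, 1260 and 976 in GPATCH4 KO and 3883, 1909 and 2856 in WT. All 3 knockout counts at the site were thus above all 3 WT counts, while the neighbour means of both groups overlapped.

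Read 5' ends and read 3' ends are separate records of the same cuts, and they differed in how closely the knockout libraries matched one another at Gm4494. From 5' ends alone the score was 0.118, 0.176 and 0.135 in GPATCH4 KO, against 0.945, 0.934 and 0.935 in WT, with a narrow spread in both groups. From 3' ends alone it was 0.722, 0.0848 and 0.377 in GPATCH4 KO, against 0.942, 0.941 and 0.902 in WT. The wide spread among knockout libraries was therefore in the 3' ends. The difference was -0.80 with 5' ends (limma, adjusted p = 2.18e-10) and -0.53 with 3' ends (adjusted p = 0.0129).

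The profile of 5' ends shows where the groups parted. In GPATCH4 KO the 5' ends at Gm4494 amounted to 0.882, 0.824 and 0.865 of the neighbour mean, against 0.0553, 0.0659 and 0.0650 in WT. At the next base they amounted to 1.35, 1.73 and 1.43 in GPATCH4 KO and to 2.07, 1.74 and 2.87 in WT. At Um4498, 4 bases on, they amounted to 0.0974, 0.117 and 0.127 in GPATCH4 KO and to 0.101, 0.109 and 0.0788 in WT. The A loop sites thus kept their depletion of 5' ends beside a site where most of it was gone.

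**Figure D2:**
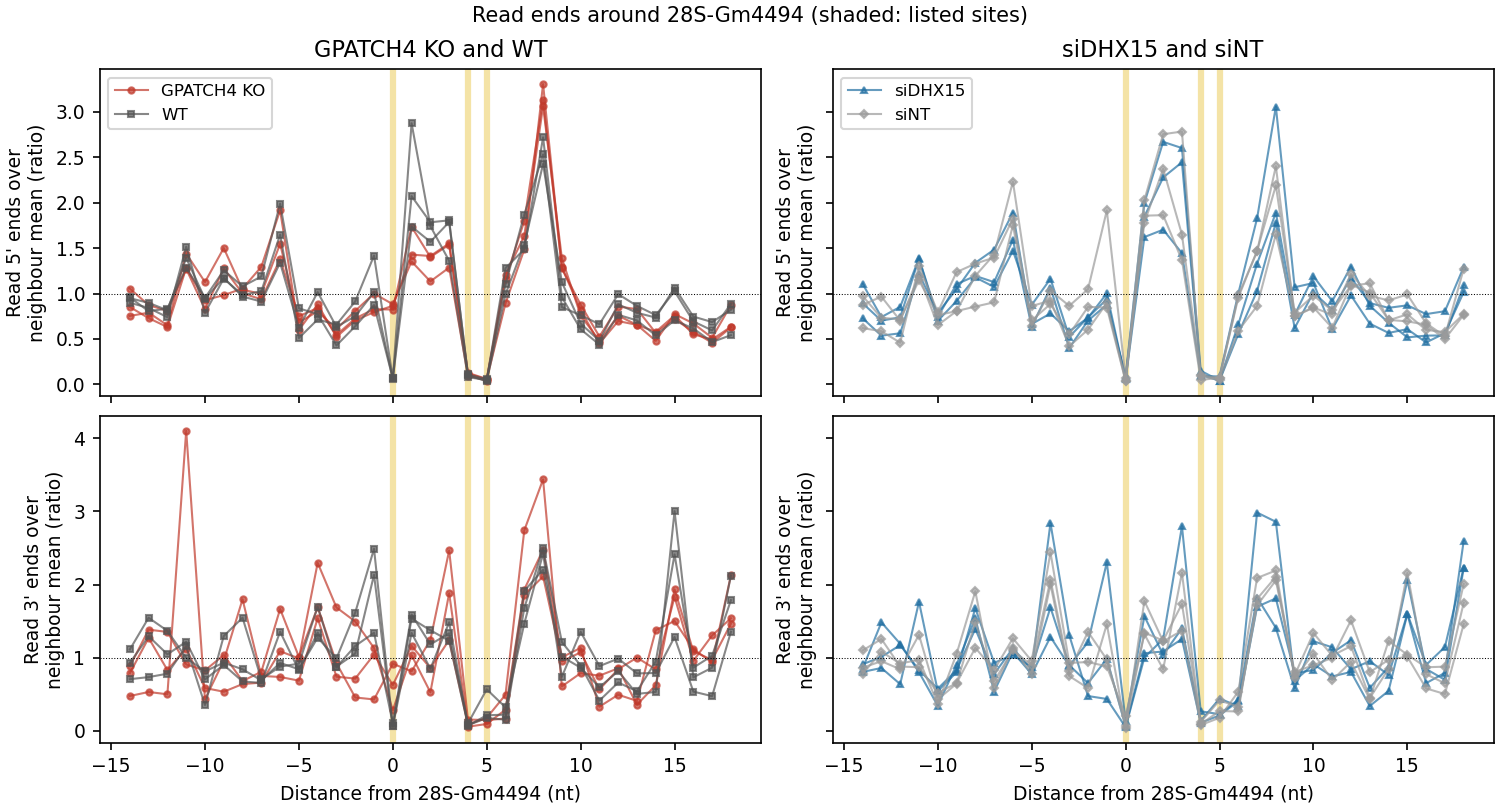
Read 5' ends (upper row) and read 3' ends (lower row) at each position, as a ratio to the weighted mean of the 6 neighbours on each side, against the distance from Gm4494 in nucleotides. Each line is 1 library, shading marks Gm4494, Um4498 and Gm4499, and at distance 0 in the upper row the GPATCH4 KO lines stand at 0.824 to 0.882 while WT, siDHX15 and siNT lines stand below 0.1.

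Gm4494 was 1 of 12 sites called lower, where 24.8% of all 141 listed sites were called lower in GPATCH4 KO. None was called higher by limma, against 0.709% of all sites. Of the 12, 3 had an unadjusted p under 0.05 in either direction, and edgeR called 1 higher (Cm4456). The shares of all 141 sites by unadjusted p or by edgeR are not given here, so neither count is a result about the 12 sites. The median difference of the 12 sites was 0.000637, and that of all 141 sites was -0.00607. With the library index of the file headers as a block the Gm4494 difference was -0.56 (limma, adjusted p = 0.0261). No GPATCH4 KO library shares an index with a WT library, so this fit draws the difference from same-index pairs with siRNA libraries.

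2 further sites had groups that did not overlap without passing the threshold. At Um4306, guided by SNORD41, scores were 0.779, 0.743 and 0.421 in GPATCH4 KO, against 0.899, 0.870 and 0.8496 in WT. All knockout values were the lower ones, and the third knockout library lay far under the other two. The difference was -0.225 (95% interval -0.396 to -0.0534, limma, adjusted p = 0.0573). It passed without GPATCH4 KO replicate 1 (-0.29), replicate 2 (-0.27) or replicate 3 (-0.11, adjusted p = 0.0123), and 9 of 29 alternative settings called it lower. With the library index as a block it was -0.182 and did not pass (limma, adjusted p = 0.284). Nor did it pass with only the GPATCH4 KO and WT libraries fitted (limma, adjusted p = 0.204). At Cm4456, guided by SNORD49A, scores were 0.919, 0.924 and 0.938 in GPATCH4 KO, against 0.879, 0.893 and 0.869 in WT. The difference was 0.0466 (95% interval 0.0116 to 0.0817, limma, adjusted p = 0.0545), and 8 of 29 alternatives called it higher. Over all 141 sites, 31.2% had every GPATCH4 KO library below every WT library and 7.09% had every one above.

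The other 9 sites did not pass, and their intervals differ in width. Gm4392 averaged 0.968 ± 0.00935 in GPATCH4 KO and 0.968 ± 0.00584 in WT (SD, n = 3 each), and the 95% interval of its difference was -0.0291 to 0.0292. Gm4228 averaged 0.983 in GPATCH4 KO and 0.982 in WT, with an interval from -0.0291 to 0.0316. Um4227 averaged 0.977 in GPATCH4 KO and 0.970 in WT, with an interval from -0.0307 to 0.0430. Changes larger than about 0.05 lie outside the intervals of these sites. Gm4196 averaged 0.943 ± 0.00956 in GPATCH4 KO and 0.955 ± 0.0226 in WT, a difference of -0.0126 (limma, adjusted p = 0.738).

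In the A loop, Um4498 averaged 0.896 ± 0.0309 in GPATCH4 KO and 0.913 ± 0.00570 in WT. Gm4499, the counterpart of the yeast Spb1 site, scored 0.933, 0.899 and 0.882 in GPATCH4 KO, against 0.860, 0.883 and 0.661 in WT, with an interval from -0.0320 to 0.239. Am4523, guided by SNORD29, averaged 0.936 ± 0.00487 in GPATCH4 KO and 0.912 ± 0.0178 in WT. At Cm4536, guided by SNORD35A, scores were 0.967, 0.853 and 0.959 in GPATCH4 KO, against 0.970, 0.688 and 0.967 in WT, with an interval from -0.114 to 0.217. At each of Gm4499 and Cm4536 a single WT library lay far below the other two, and without it at Cm4536 the difference was -0.0419.

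The siRNA comparison asks which methylations depend on the helicase DHX15. The sites called lower were the P loop site Gm4196 and the adjacent pair Um4227 and Gm4228, and each fell by less than 0.1. Um4227 scored 0.839, 0.885 and 0.870 in siDHX15, against 0.965, 0.934 and 0.962 in siNT. The siDHX15 values were all below the siNT values, with a gap between the groups. The means were 0.865 ± 0.0237 in siDHX15 and 0.954 ± 0.0174 in siNT (SD, n = 3 each), and the difference was -0.0890 (SE 0.0164, limma, adjusted p = 0.00207).

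Gm4228 scored 0.909, 0.911 and 0.934 in siDHX15, against 0.9904, 0.970 and 0.9899 in siNT. The groups again did not overlap, and the difference was -0.0655 (SE 0.0135, limma, adjusted p = 0.00370). Um4227 and Gm4228 are neighbours and share most of their windows, so their scores are not independent records. The reads that ended at Gm4228 numbered 15, 25 and 57 in siDHX15, against 4, 11 and 3 in siNT. These counts also reflect depth, since the neighbour means were 165, 280 and 865 in siDHX15 and 417, 370 and 296 in siNT.

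Gm4196 scored 0.925, 0.930 and 0.937 in siDHX15, against 0.973, 0.973 and 0.985 in siNT. These ranges lie close together without touching, and the difference was -0.0465 (SE 0.0149, limma, adjusted p = 0.0378). The siNT values rest on 7, 7 and 3 read ends at the site. This call was lost in 15 of 29 alternatives, and without 1 library its adjusted p ran from 0.0264 to 0.109, past the threshold without WT replicate 2 or any siDHX15 or siNT replicate.

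The 3 calls compare with 31.2% of all 141 sites called lower after siDHX15, so the count by itself is no result about these sites. Neither limma nor edgeR called any of the 12 higher, against 0% of all sites with limma, and 4 had an unadjusted p under 0.05, all lower. For edgeR and for unadjusted p the shares of all 141 sites are not given here. The 12 sites had a median difference of -0.00638, against -0.0569 over all 141. When each library was centred on its median shift over all listed sites, none of the 3 calls remained. The differences at Gm4196 and Gm4228 turned positive (0.0226 and 0.00361). The region then had 0 lower and 3 higher calls in place of 3 lower and 0 higher. Centring raised the siDHX15 difference of every site by the same amount. The share of all 141 sites called after centring is not given here, so these counts are no result about the 12 sites. With the library index as a block no site was called, and the differences were -0.090 at Um4227 (limma, adjusted p = 0.105), -0.067 at Gm4228 (adjusted p = 0.185) and -0.036 at Gm4196 (adjusted p = 0.447). The libraries of the siRNA experiment all have different indices. That block thus compares siDHX15 with siNT only through same-index libraries of the knockout experiment. It cannot show whether the calls depend on the index.

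Um4498 of the A loop was the fourth site with groups that did not overlap. It scored 0.824, 0.859 and 0.901 in siDHX15, against 0.910, 0.910 and 0.918 in siNT, and the difference of -0.0512 did not pass (limma, adjusted p = 0.103). Without siDHX15 replicate 3 it was -0.0712 and passed (adjusted p = 0.0273). Such separation downward was seen at 44% of all 141 sites.

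Gm4494 did not pass after siDHX15. It scored 0.941, 0.885 and 0.942 in siDHX15, against 0.880, 0.963 and 0.933 in siNT, with overlapping groups and means of 0.923 ± 0.0328 and 0.925 ± 0.0421 (SD, n = 3 each). The difference was -0.00221 with a 95% interval from -0.185 to 0.180, so the size seen in GPATCH4 KO lies outside it. From 5' ends alone the means were 0.929 ± 0.015 in siDHX15 and 0.952 ± 0.016 in siNT, with a difference of -0.023 (limma, adjusted p = 0.323).

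Um4306 averaged 0.910 ± 0.0395 in siDHX15 and 0.927 ± 0.0189 in siNT, and Cm4456 averaged 0.900 ± 0.0229 in siDHX15 and 0.906 ± 0.0081 in siNT. Gm4392 averaged 0.977 in siDHX15 and 0.981 in siNT, and Am4523 averaged 0.965 in siDHX15 and 0.940 in siNT. Cm4536 averaged 0.914 ± 0.0478 in siDHX15 and 0.915 ± 0.0758 in siNT. Gm4499 scored 0.875, 0.732 and 0.870 in siDHX15, against 0.885, 0.842 and 0.770 in siNT, with an interval of the difference from -0.142 to 0.129.

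**Figure D3:**
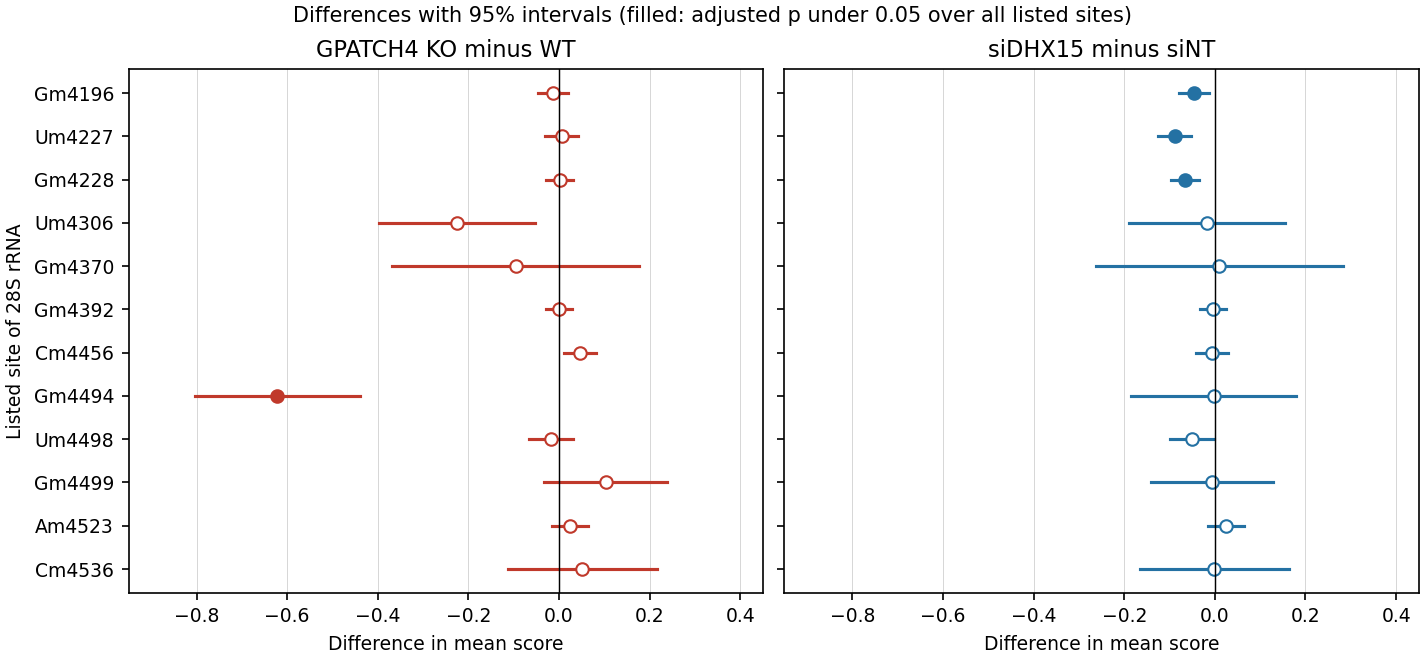
Difference in mean score (horizontal axis, fraction) for GPATCH4 KO minus WT (left) and siDHX15 minus siNT (right) at each of the 12 sites, with 95% intervals of limma. Filled symbols passed an adjusted p of 0.05 over 141 sites, namely Gm4494 on the left at -0.621 and Gm4196, Um4227 and Gm4228 on the right at -0.0465, -0.0890 and -0.0655.

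Whether the knockout and the knockdown act alike on a site was tested as the difference of both differences. It was called at Gm4494 (-0.619, limma, adjusted p = 0.00165), where the knockout effect was more negative. In the other direction it was called at Um4227 (0.0952, adjusted p = 0.00873) and Gm4228 (0.0668, adjusted p = 0.0208), where the siDHX15 effect was more negative. This makes 1 site below and 2 above, against 17% and 20.6% of all 141 sites. Gm4196 did not pass (0.0339, adjusted p = 0.247), so different effects were not shown there. Without WT replicate 1 or siNT replicate 1 the call at Gm4228 was lost (adjusted p up to 0.0550). With the library index as a block, or with centred libraries, both positive calls were lost, and with 3' ends alone all 3 calls were lost. With 5' ends alone the call at Um4227 was lost too (0.102, adjusted p = 0.105), so it failed with either kind of end alone.

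Both control groups, siNT and WT, were also compared, since their libraries differ in depth and transfection. No site of the region passed, as none of all 141 sites did (0%), and edgeR called none of the 12. By limma 0 of the 12 sites had an unadjusted p under 0.05. For edgeR and for unadjusted p the shares of all 141 sites are not given here. The widest gap was at Gm4370, with 0.730 ± 0.289 in siNT and 0.896 ± 0.0196 in WT (SD, n = 3 each), a difference of -0.166 that was -0.000127 without siNT replicate 1.

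Gm4370, guided by SNORD60, had the second lowest mean of the 12 sites and varied most within groups (SE of a difference 0.122). It scored 0.652, 0.911 and 0.838 in GPATCH4 KO, against 0.908, 0.906 and 0.873 in WT. In the siRNA experiment it scored 0.739, 0.802 and 0.677 in siDHX15, against 0.397, 0.924 and 0.868 in siNT. The groups of each comparison overlapped, with differences of -0.0958 (limma, adjusted p = 0.752) in the knockout and 0.00983 (adjusted p = 0.972) after siDHX15. The first siNT library stood far below the other two, and without it the siDHX15 difference was -0.156 (adjusted p = 0.134).

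With 5' ends alone Gm4370 read differently. Its scores were 0.870, 0.921 and 0.8502 in siDHX15, against 0.953, 0.975 and 0.973 in siNT, groups that did not overlap. The difference was then -0.0870 (limma, adjusted p = 0.0220), opposite in sign to that from both ends. With the library index as a block, which pairs siRNA libraries with libraries of the knockout experiment, it was -0.084 (limma, adjusted p = 0.234). With 3' ends alone the scores were 0.659, 0.728 and 0.590 in siDHX15, against 0.168, 0.896 and 0.816 in siNT, and the groups overlapped. In the knockout, 5' ends gave 0.893, 0.859 and 0.927 in GPATCH4 KO, against 0.888, 0.835 and 0.900 in WT.

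The same split between the ends recurred at Gm4499 and Cm4536. From 5' ends alone Gm4499 scored 0.913 to 0.966 and Cm4536 scored 0.964 to 0.994 over the 12 libraries. From 3' ends alone they scored 0.435 to 0.909 and 0.0769 to 0.952. Over all 12 sites the range was wider with 3' ends at 11, the exception being Um4227. Of 144 library values 14 differed by more than 0.2 between the ends, all of them at Gm4370, Gm4494, Gm4499 and Cm4536, and the 3' score was the lower one in 12.

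**Figure D4:**
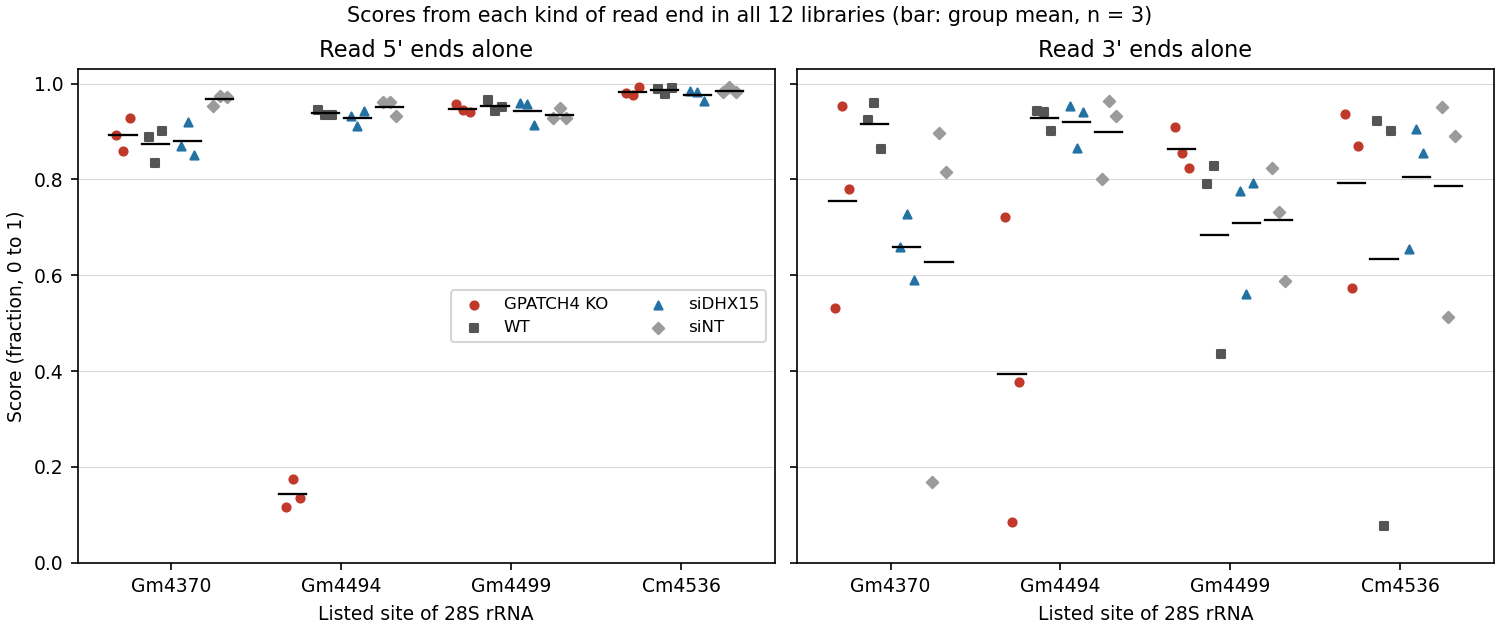
Score (vertical axis, fraction from 0 to 1) from read 5' ends alone (left) and read 3' ends alone (right) at 4 sites, with 1 symbol for each library and a bar for each group mean (n = 3). With 5' ends the only values under 0.8 are those of GPATCH4 KO at Gm4494, from 0.118 to 0.176, whereas with 3' ends single libraries of several groups fall as low as 0.0769.

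Some of the low values fell in libraries that share a library index, which the file headers name. The sites described below are a selection. With 3 libraries a group, a same-index pair can be the lowest of both groups by chance. The share expected by chance is not given here, so these matches are no result about the index. Single matches also occurred at Gm4196, Gm4392, Cm4456, Um4498 and Am4523. Each of the 6 indices was used for 1 library of the knockout experiment and 1 of the siRNA experiment. GPATCH4 KO replicate 1 and siNT replicate 1 share an index, and both were the lowest of their group at Gm4370 (0.652 and 0.397). The lowest siDHX15 library there (replicate 3, 0.677) shares its index with GPATCH4 KO replicate 3 (0.838), and the lowest WT library (replicate 3, 0.873) with siNT replicate 3 (0.868), and neither partner was the lowest of its group. At Cm4536 GPATCH4 KO replicate 2 and siDHX15 replicate 1 share one (0.853 and 0.863), as do siNT replicate 2 and WT replicate 2 (0.828 and 0.688), and these 4 were the lowest of their groups. At Um4306 GPATCH4 KO replicate 3 (0.421) shares its index with siDHX15 replicate 3 (0.870), and WT replicate 3 (0.8496) with siNT replicate 3 (0.907). Each of these was the lowest of its group. At Gm4499 siNT replicate 3 and WT replicate 3, of 1 index, were the lowest of their groups (0.770 and 0.661), but the lowest siDHX15 library (0.732) shares its index with WT replicate 1 (0.860) and the lowest GPATCH4 KO library (0.882) with siDHX15 replicate 3 (0.870), and neither partner was.

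At Gm4494, as at Um4227 and Gm4228, no same-index pair was the lowest of both its groups. The lowest knockout library, replicate 2 at 0.125, shares its index with siDHX15 replicate 1, which scored 0.941, and the lowest siNT library, at 0.880, shares its index with the highest knockout library, at 0.537.

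Over the 448 unlisted positions, deviations of 3' end scores from the group mean correlated between libraries of one index with r from 0.213 to 0.484 (median 0.411, 6 pairs). For the 30 pairs of different index r lay between -0.457 and 0.244. With 5' ends, same-index pairs had r from 0.107 to 0.391 and pairs of different index from -0.326 to 0.257. The ranges of same-index and different-index pairs thus overlap with either kind of end. At the 12 listed sites same-index r ran from 0.224 to 0.743 with 3' ends and from -0.368 to 0.694 with 5' ends. Pairs of different index ran there from -0.753 to 0.775 and from -0.516 to 0.495. These correlations run across positions that share neighbour windows and are given as a description. The index's part in the site results was addressed only through the block, which cannot compare groups of an experiment within an index.

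The authors' overview treated such values unevenly. Its deposited mean for Gm4370 in GPATCH4 KO, 0.881, uses a recalculated first replicate that equals the score from 5' ends, while the mean of all 3 both-end scores is 0.8002. Likewise its WT means are 0.898 at Gm4499 and 0.972 at Cm4536, against 0.801 and 0.875 from both ends. For siNT it gives 0.730 at Gm4370, the both-end mean, although a recalculated value of 0.953 for replicate 1 was deposited too. With the recalculated values used wherever deposited, the siDHX15 difference at Gm4370 was -0.132 (limma, adjusted p = 0.0449).

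Unlisted positions gave no calls. Of the 448, 62 scored 0 in all 12 libraries and 130 had a mean of at least 0.2 and were tested among 2593 such positions of all RNAs. None of the 130 was called by limma in GPATCH4 KO or after siDHX15, with 5 and 4 at an unadjusted p under 0.05. The share of all 2593 positions at that unadjusted level is not given here. Over all 2593 positions 0% were called in GPATCH4 KO, and 0.0386% were called lower and 0% higher after siDHX15. The highest means belonged to G4161 (0.664) and U4442 (0.663), which were named after their values were seen, and neither reached the lowest listed mean of 0.772.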

How the data were processed

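Fragments of 20 to 40 nt from alkali-treated total RNA were read on an Ion Proton, per the labels' protocols. Cutadapt 2.0, Bowtie2 2.3.4.1 and hg38 appear in the submitters' processing notes, with no role given. The authors deposited whole-number counts of read 5' and 3' ends per position, and their score, a fraction, per the file headers. Recomputed as 1 minus both ends over the weighted mean of 6 neighbours a side (weights 1.0 to 0.5), floored at 0, it matched the deposited score within 1e-08 at all 460 positions of the region (4101 to 4560). Both-end scores were used throughout, except at 8 cap-proximal snRNA sites outside the region, where the deposited recalculated value stood in.

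The test was limma 3.58.1 (R 4.3.3) on the scores, with 4 group means over 12 libraries, two-sided, Benjamini-Hochberg adjusted over 141 listed sites (or 2593 unlisted positions with a mean of at least 0.2) at 0.05. The code was tested on simulated data. edgeR 4.0.16, with the neighbour mean as offset, was an alternative, as were a replicate block, a library index block, leaving out each library, other scores and filters. Every listed site was named. Gm4494 and Gm4370, which averaged under 0.8, were given by library in both comparisons. Gm4196, Um4227 and Gm4228, which passed after siDHX15, were given by library there. Um4306, Cm4456, Um4498, Gm4499 and Cm4536 were also given by library, in either or both comparisons. The members, lists and settings were chosen with earlier results of these data known.

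Same-numbered siDHX15 and siNT libraries deviated together weakly over 141 sites (r = 0.117, 0.160 and 0.166). Differently numbered pairs had r from -0.301 to 0.15, and 5 of 6 libraries correlated best with their own number. This counts here as pairing by number, taken from the data and not from the labels. The main test did not use it. The replicate block was a single factor over all 4 groups, so a block of the siRNA experiment alone was not fitted. As a ratio of counts, the score has no binomial interval. No 2 replicates were the same library, since chi-square per degree of freedom lay between 8.61 and 266.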

Additional observations from a re-analysis of the deposited data

Results flagged for a closer look

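At 3 of the 12 sites the effect of the knockout differed from that of siDHX15 by a test of the difference itself (limma, Benjamini-Hochberg over 141 sites). At 28S-Gm4494 the knockout effect was lower by -0.619, with all 3 GPATCH4 KO libraries below all 3 WT libraries and overlapping siRNA groups. At 28S-Um4227 and 28S-Gm4228 the differences were 0.0952 and 0.0668, with all 3 siDHX15 libraries below all 3 siNT libraries and overlapping GPATCH4 KO and WT libraries.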

How the results depend on the processing

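The loss at Gm4494 in GPATCH4 KO was called in all 29 alternatives (adjusted p up to 0.0261), and without 1 library the difference lay between -0.735 and -0.529. Lower calls in GPATCH4 KO numbered 2, with Um4306 added, under the replicate block (numbers whose deviations did not pair, r = 0.12, 0.0459 and -0.000863, with 3 of 6 libraries correlating best with their own number), robust and trended variance, edgeR, the logit scale, 2 neighbours a side and a neighbour mean of at least 100, and 1 to 2 without 1 library (2 without any one GPATCH4 KO replicate). Higher calls numbered 1 (Cm4456) under robust variance, edgeR, 2 neighbours, listed neighbours left out and a neighbour mean of at least 100, 2 when each library was centred (Cm4456 and Am4523), and 0 to 1 without 1 library (1 without siDHX15 replicate 1 or 2). After siDHX15, lower calls numbered 0 with the library index as a block, centred libraries, 3' ends alone and, chosen after seeing the data, 5' ends with the index block, and 2 to 3 without 1 library. Um4227 and Gm4228 were called in all 12 fits without 1 library. The replicate block, a single factor over all 4 groups, changed none of the siDHX15 calls. Centring raised the siDHX15 difference of every site by the same amount. It gave 3 higher calls and turned the differences at Gm4196 (0.0226), Gm4228 (0.00361), Gm4392 (0.0652) and Cm4456 (0.0629). At Gm4370 the siDHX15 difference turned to -0.0870 with 5' ends and -0.132 with recalculated values, and the difference of effects turned to 0.106 with 5' ends. For the difference of effects, lower calls numbered 0 with 3' ends alone. Its higher calls numbered 0 with the index block, centring, 3' ends and 5' ends with the index block, and 1 to 2 without 1 library (1 without WT replicate 1 or siNT replicate 1). The causes of these changes were not tested. The index block leaves few degrees of freedom and compares the groups of an experiment only through libraries of the other experiment. Shallow siRNA libraries limit small differences in the siRNA experiment.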
